A study of Canis lupus familiaris with 18 samples.

Results

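The regions described here are stretches of the dog genome in which an *E2F1* peak was called in each of 3 ancestral dogs and in none of 3 derived dogs. They were found by joining all deposited *E2F1* peaks of the 6 dogs on chromosomes 1 to 38 wherever peaks overlapped or touched, and numbered 561 of 512222 regions. The regions were chosen by the *E2F1* peak calls of all 6 dogs, so their number and strength are given as a description and not as a test. No independent measure of *E2F1* in these dogs was at hand.

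The data were *ChIP-seq* peak lists from flash-frozen brainstem (pons) of 6 male dogs aged 12 to 16 years, and each dog gave 1 list for *E2F1* and 1 for *H3K27ac*. The labels call 3 dogs ins and 3 dogs noins for the site Cfa6.66, a transposable element (TE) in *GTF2I*. The ins dogs were heterozygous for the TE and are called ancestral, so they too carried 1 derived allele, and the noins dogs were homozygous for the allele without it and are called derived. The animals were pets put down by veterinarians on medical grounds, mixed-breed apart from a Labrador Retriever among the ancestral dogs, and they also differed at other TE sites that the study genotyped. Numbers 1 to 3 name the dogs of a genotype as the labels number them. The brainstem label was not checked against marker genes, because gene positions in the build of the lists were not used here.

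*E2F1* is a transcription factor of the E2F family, best known for switching on genes of DNA replication and the entry into the cell cycle, and for its control by the retinoblastoma protein. It binds mostly near transcription start sites, and in mature neurons, which no longer divide, it has been tied to cell death and stress responses. *H3K27ac* is acetylation of histone H3 at a lysine of its tail and marks active promoters and enhancers. A peak is a stretch in which reads of 1 dog pile up above the local background that macs2 estimates, and a broad peak joins neighbouring stretches. Fold enrichment is the height over that background, and q is the p-value corrected for the number of places tested, written as −log10 q so that larger is stronger. Fold and q are the authors' values and describe a peak within its own list.

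Ancestral-only regions were rare, and with all deposited peaks their number was inside the range of the other sets of 3 dogs. The 561 regions were 0.110% of all regions, while regions called in the 3 derived dogs alone numbered 895, or 0.175%. This order depended on the peaks admitted. With the same number of peaks taken from each dog, 641 regions were ancestral-only and 405 derived-only. At a q below 0.0005 the numbers were 215 and 85, and at a q below 1e-10 they were 26 and 3. These cuts were made in all 6 lists before joining, so their regions need not be among the 561. A q below 0.0005 was met by 35.7%, 49.0% and 38.4% of the autosomal peaks of ancestral dogs 1 to 3. For derived dogs 1 to 3 the shares were 17.7%, 39.5% and 30.6%, lowest in derived dog 1. Whether this accounts for the change of order was not tested. The 6 dogs can be put into 20 sets of 3, which were counted with all deposited peaks only. The other 19 sets had between 331 and 2934 regions of their own, with a median of 791. Of these sets, 12 had more regions than the ancestral dogs and 7 had fewer. Taken as splits into 3 and 3, the genotypes gave 1456 regions on both sides together, and the other 9 splits gave between 1371 and 3292. Of those 9 splits, 7 had a higher total.

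**Figure D1:**
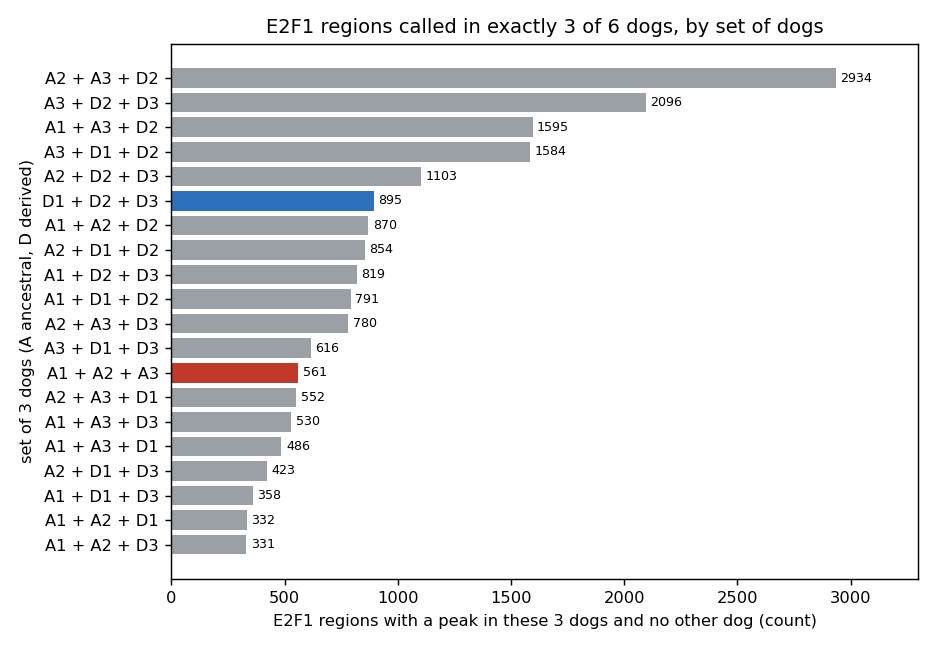
Bars give the number of *E2F1* regions (x axis) called in each set of 3 dogs and in no other dog (y axis), with A for ancestral and D for derived dogs. The ancestral set, in red, had 561 regions and ranked 13 of 20, the derived set, in blue, had 895, and the 10 sets at the top all include derived dog 2.

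The lists differed in length. For ancestral dogs 1 to 3 the autosomal lists held 86634, 84014 and 130535 *E2F1* peaks. For the derived dogs they held 107268, 160157 and 115998, so derived dog 2 had the longest list. The 10 sets of 3 dogs that include derived dog 2 were also the 10 with the most regions, but list length did not order the sets throughout. The lists of the ancestral set held 307761 peaks together, and those of ancestral dog 1 with derived dogs 1 and 3 held 316856 peaks but gave 358 regions. A further 1403 regions had peaks in all 3 ancestral dogs and in derived dog 2 alone, against 149 for derived dog 1 and 245 for derived dog 3. Without derived dog 2 the ancestral-only regions numbered 1924. Requiring only 2 ancestral dogs, they numbered 4477 without ancestral dog 1, 4091 without ancestral dog 2 and 2891 without ancestral dog 3. What part of the absences in derived dogs reflects binding was not tested, since a list holds no value where no peak was called.

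The peaks that made up these regions were of middling strength. At the regions, the fold enrichment had a median of 4.45 in ancestral dog 1, 4.32 in dog 2 and 4.54 in dog 3, against 4.22, 4.27 and 3.94 over all autosomal peaks of the same lists. The highest fold was 10.7, 10.0 and 14.2 in the 3 dogs. The median −log10 q was 3.15, 3.34 and 3.41, which lay above 53.8%, 52.0% and 62.8% of each dog's own list. Ancestral dog 2 had the weakest peak of the 3 by percentile at 214 regions, dog 1 at 205 and dog 3 at 142.

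The authors' threshold for *E2F1*, a q below 0.0005, was passed by 246 of the 561 regions in ancestral dog 1, by 290 in dog 2 and by 308 in dog 3. All 3 peaks passed it at 76 regions, or 13.5%, and none did at 77, or 13.7%. At the edge of the rule, the weakest peaks inside had a −log10 q of 1.3 on CFA12 from 21410309 to 21410701 and on CFA23 from 7693931 to 7694514, both in ancestral dog 1. Just outside, derived peaks with a −log10 q of 1.34 in dog 1, 1.37 in dog 2 and 1.38 in dog 3 kept regions with peaks in all 3 ancestral dogs from being counted. Both lie near the lowest −log10 q of the deposited lists, which sets the weakest value on either side. The derived peaks that excluded such regions had a median −log10 q of 2.79 in dog 1, 5.39 in dog 2 and 3.3 in dog 3.

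**Figure D2:**
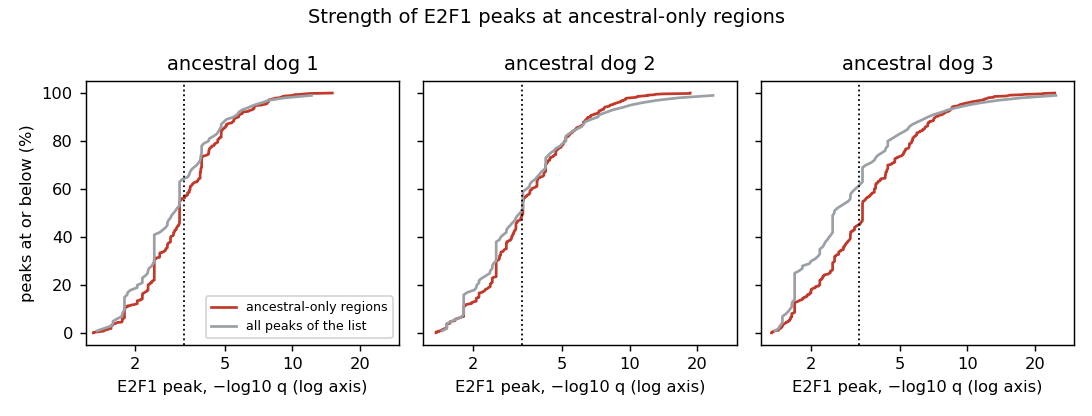
Each panel is 1 ancestral dog, with −log10 q of *E2F1* peaks on a log x axis and the percentage of peaks at or below that value on the y axis, in red for the ancestral-only regions and in grey for all autosomal peaks of the list. The dotted line marks a q of 0.0005, and the red curve runs closest to the grey one in ancestral dog 2, with medians of 3.34 and 3.24.

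The regions were short. The joined width had a median of 599 bp, with quartiles at 458 and 781 bp and a range from 255 to 1598 bp, and 46 regions were wider than 1 kb. Single peaks were narrower, with a median of 315 bp in ancestral dog 1, 306 bp in dog 2 and 276 bp in dog 3, a mean of 299 ± 20.4 bp (SD, n = 3). The widest regions lay on CFA9 from 44988519 to 44990116, on CFA10 from 37694473 to 37696016 and on CFA1 from 118039404 to 118040850, and in none of these did the strongest peaks of the 3 dogs share a base.

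Joining peaks did not always mean that the 3 dogs had a peak at the same place. The strongest peaks of the 3 dogs shared at least 1 base at 386 regions, or 68.8%, with a median shared length of 152 bp. At the other 175 regions, or 31.2%, no base was common to the strongest peaks of all 3 dogs. The summits of the 3 peaks lay within 100 bp of each other at 100 regions and more than 500 bp apart at 85, with a median span of 231 bp. In the other regions of exactly 3 dogs 66.6% shared a base and the median span was 253 bp, and in the derived-only regions these values were 61.1% and 249 bp.

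Derived dogs often had an *E2F1* peak close by. The nearest derived peak was a median of 677 bp from the region, and at 337 regions, or 60.1%, it was within 1 kb. Derived dog 2 held the nearest peak at 266 regions, dog 3 at 151 and dog 1 at 144. Among the derived-only regions, 51.3% had an ancestral peak within 1 kb, and among the other regions of 3 dogs 55.2% had a peak of an absent dog within 1 kb. No derived peak lay within 1 kb of 224 ancestral-only regions, and none within 10 kb of 14.

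Acetylation was measured apart from the rule, and most of the regions carried it in both genotypes. In ancestral dogs 1 to 3 an *H3K27ac* peak overlapped 66.3%, 58.6% and 62.7% of the ancestral-only regions, and for derived dogs 1 to 3 the shares were 62.2%, 64.7% and 62.4%. Over all *E2F1* regions the share averaged 30.7% over the 6 dogs. At the ancestral-only regions, the values of the derived dogs fell inside the range of the ancestral dogs. Ancestral dogs averaged 62.6 ± 3.84% (SD, n = 3) and derived dogs 63.1 ± 1.39% (SD, n = 3). The difference, ancestral minus derived, was -0.535 percentage points and smaller than the SD of either genotype (two-sided exact permutation test over 20 assignments, p = 1, where the smallest possible p is 0.1). Its sign turned without ancestral dog 2 (1.66), ancestral dog 3 (0.0692) or derived dog 2 (1.2), when the rule was applied to the remaining dogs.

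Region by region, most had *H3K27ac* either in all dogs or in none, as did *E2F1* regions in general. All 6 dogs had an *H3K27ac* peak at 294 regions, or 52.4%, and no dog had one at 147, or 26.2%. At the other regions of exactly 3 dogs these shares were 43.9% and 29.4%, and over all *E2F1* regions they were 18.8% and 53.6%. At the remaining 120 regions only some of the dogs had a peak. More ancestral than derived dogs had one at 48 regions, and more derived than ancestral dogs also at 48. The numbers of dogs differed by 2 or more at 5 regions on the ancestral and 14 on the derived side. At these 120 regions ancestral dogs 1 to 3 had a peak at 78, 35 and 58, and derived dogs 1 to 3 at 55, 69 and 56.

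Very few regions had *H3K27ac* on the side of 1 genotype. An *H3K27ac* peak in all 3 ancestral and no derived dogs was found at 1 of the 561 regions, against 0.102% of all *E2F1* regions, and the opposite at 1 region, against 0.211%. The first lay on CFA1 from 106122470 to 106122934, where *E2F1* fold was 4.52, 2.76 and 11.4 in ancestral dogs 1 to 3. Its *H3K27ac* peaks had folds of 4.23, 2.22 and 3.57, and the nearest *H3K27ac* peaks of derived dogs 1 to 3 were 76, 4085 and 150 bases away. The region with the opposite pattern lay on CFA16 from 8478291 to 8478880, with *H3K27ac* folds of 2.62, 2.36 and 2.65 in derived dogs 1 to 3 and the nearest peaks of the ancestral dogs 336, 505 and 588 bases away. Apart from derived dog 2 at the first region, every dog without an overlapping peak thus had one within 1 kb.

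With all 6 dogs, *H3K27ac* was present more often at ancestral-only regions than at the other 17949 regions called in exactly 3 dogs. The difference, ancestral-only minus other, was 5.35, 7.98 and 6.15 percentage points in the *H3K27ac* lists of ancestral dogs 1 to 3 and 6.03, 3.08 and 6.59 in those of derived dogs 1 to 3. It was positive in 6 of 6 dogs, with a mean of 5.86 ± 1.62 points (SD, n = 6; exact two-sided sign-flip permutation test over 64 assignments, p = 0.03125, the smallest possible, Benjamini-Hochberg adjusted p = 0.0469 over 3 tests). Against the 895 derived-only regions, with 48.8%, 37.8% and 43.1% in ancestral and 42.9%, 49.2% and 43.2% in derived dogs, the difference was 18.7 ± 1.88 points (SD, n = 6), positive in 6 of 6 dogs (same exact permutation test, p = 0.03125, adjusted p = 0.0469).

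These tests cover the spread between *H3K27ac* lists over fixed regions, and not the choice of regions, which came from single *E2F1* lists. The 6 lists mostly marked the same regions, so a difference between sets tended to have the same sign in every dog. The exact sign-flip permutation test also reached its smallest possible p against all *E2F1* regions (32.1 points) and the regions of all 6 dogs (-16.0 points). This exact permutation test did so again at an *E2F1* q below 1e-10, where the difference from the other regions was -4.5 points. These tests thus cannot show that ancestral-only regions stand apart. Averaged over the 6 dogs, *H3K27ac* covered between 33.8% and 72.9% of the regions of the other 19 sets of 3 dogs, and 4 of those sets exceeded the 62.8% of the ancestral-only regions. By the lowest percentile of a region's peaks within their own lists, the derived-only regions were weaker, with a median of 20.3. The ancestral-only regions had a median of 29.4 and the other regions of 3 dogs 28.3. The median joined width of the derived-only regions was 547 bp. Whether strength and width account for part of the difference was not tested. With 1 dog left out and the rule applied to the others, the difference from the other regions was 12.1, 0.614 and 3.86 points without ancestral dogs 1 to 3, and -0.848, 16.7 and 0.46 points without derived dogs 1 to 3. The difference from the other regions thus changed sign without derived dog 1. That from the derived-only regions was 10.2, -4.23 and -1.29 points without ancestral dogs 1 to 3. Without derived dogs 1 to 3 it was 20.3, 44.6 and 25.1 points. Without an ancestral dog, ancestral-only regions needed peaks in 2 dogs and derived-only regions in 3, and without a derived dog the reverse. The difference from the derived-only regions was then between unlike sets, so these values cannot show whether its direction holds.

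**Figure D3:**
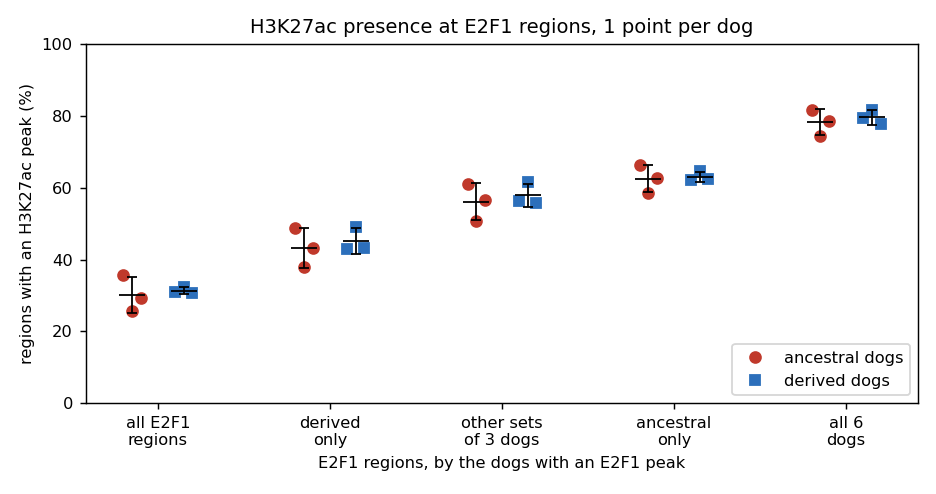
The y axis is the percentage of regions overlapped by an *H3K27ac* peak of a dog, with 1 point per dog, circles for ancestral and squares for derived dogs, and a bar for the mean ± SD of 3 dogs. The x axis orders *E2F1* regions by the dogs with an *E2F1* peak, and the other sets of 3 dogs include the derived-only regions. Ancestral-only regions (62.8% on average) lie between those sets (57.0%) and the regions of all 6 dogs (78.9%), and the genotypes overlap within each.

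Where all 6 dogs had *H3K27ac*, the overlapping *H3K27ac* peaks were at the median longer and stronger than those of the whole list. These regions were chosen by the same *H3K27ac* lists, so their width and fold are a description. At these 294 regions, the overlapping *H3K27ac* peak had a median width of 6846.5, 5315 and 5731 bp in ancestral dogs 1 to 3 and of 5827, 6583.5 and 5952.5 bp in derived dogs 1 to 3. The median over a whole list was between 1173 and 1387 bp, although a wide peak is also more likely to be met by any region. The median fold of those peaks was 5.79, 5.77 and 6.41 in ancestral and 5.55, 6.45 and 5.5 in derived dogs, and their median rank by q was above 88.0% to 92.2% of the dog's list. Widths and folds of the genotypes overlapped. In each dog, between 74.1% and 83.7% of the 294 regions lay wholly inside the acetylated stretch.

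The 147 regions without *H3K27ac* in any dog were of similar *E2F1* strength. Their median *E2F1* fold was 4.12, 4.23 and 4.6 in ancestral dogs 1 to 3, against 4.52, 4.33 and 4.57 at the regions acetylated in all 6 dogs. They were narrower, with a median width of 547 bp against 649 bp. The nearest *H3K27ac* peak of any dog was a median of 1493 bases away, within 1 kb at 58 of these regions and more than 10 kb away at 31. Of the 76 regions in which all 3 *E2F1* peaks passed a q below 0.0005, 47 had *H3K27ac* in all 6 dogs and 19 in none.

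Ranked by the lowest percentile among the 3 ancestral lists, the first region lay on CFA3 from 14869050 to 14869679. Its *E2F1* peaks had folds of 6.08, 6.47 and 6.54 in ancestral dogs 1 to 3, and the summits lay within 56 bases of each other. The nearest derived *E2F1* peaks were 68893, 156583 and 53126 bases away in derived dogs 1 to 3, and no other ancestral-only region was so far from a derived peak. This region had no *H3K27ac* peak in any dog, but all 6 lists had one between 151 and 463 bases from it.

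The second region, on CFA25 from 3658010 to 3658487, was in contrast strongly acetylated in every dog. Its *E2F1* folds were 5.78, 6.68 and 12.6 in the ancestral dogs, and its *H3K27ac* folds were 11.4, 9.4 and 15.6 in ancestral and 9.79, 13.6 and 13.4 in derived dogs. These *H3K27ac* peaks ranked above 98.2% to 99.4% of their lists. The nearest *E2F1* peak of derived dog 2 was 366 bases away, while those of derived dogs 1 and 3 were 56627 and 18485 bases away.

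The third region, on CFA10 from 48702408 to 48703399, also carried *H3K27ac* in all 6 dogs, with *E2F1* folds of 5.55, 6.36 and 11.5. The fourth, on CFA9 from 11122730 to 11123070, had folds of 7.64, 9.72 and 6.0 and summits within 38 bases. It had no *H3K27ac* in any dog, and the nearest acetylated stretch of each dog lay between 810 and 21296 bases away.

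The next 6 by rank lay on CFA5 from 12651117 to 12652347, CFA2 from 72701227 to 72702666, CFA9 from 41430875 to 41431762, CFA7 from 42376189 to 42376615, CFA30 from 881414 to 881860 and CFA33 from 25524935 to 25525353. All 6 carried *H3K27ac* in the 6 dogs, and their nearest derived *E2F1* peak lay between 29 and 1058 bases away. The CFA9 region sat in an acetylated domain of 16631 to 27426 bp, and the CFA7 region overlapped the edge of one, which ended between 42376225 and 42376260 in the 6 dogs. At the CFA5 and CFA2 regions the strongest peaks of the 3 dogs shared no base. Of the 10 regions ranked first, 8 were thus acetylated in all dogs.

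Regions with *E2F1* peaks in all 6 dogs, called recurrent, numbered 2771 and had a median width of 1349 bp. Ancestral-only regions lay a median of 180479 bases from the nearest of them, with quartiles at 44300 and 596000 bases. Of the 561, 225 or 40.1% (Wilson 95% interval 36.1 to 44.2%, which covers counting error only) were within 100 kb, 49 within 10 kb and 11 within 1 kb. The derived-only regions had 38.1% (35.0 to 41.3%) within 100 kb and the other regions of 3 dogs 38.6% (37.9 to 39.3%), both inside the interval of the ancestral-only regions. Over all regions that were not recurrent, most of them called in a single dog, 24.9% were within 100 kb.

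**Figure D4:**
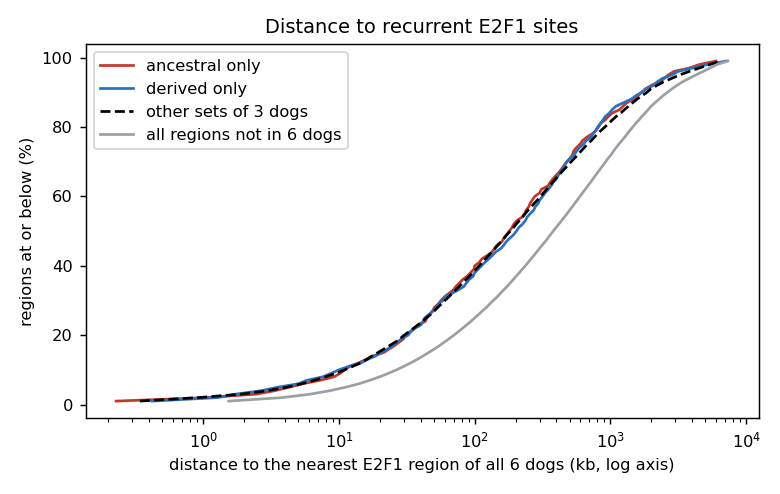
The x axis is the distance in kb, on a log scale, to the nearest *E2F1* region of all 6 dogs, and the y axis is the percentage of regions at or below it. The curves of ancestral-only, derived-only and other regions of 3 dogs run together, with medians of 180479, 202643 and 183070 bases, and that of all regions not in 6 dogs lies to the right, with a median of 379420 bases.

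The ancestral-only region closest to a recurrent site was on CFA20 from 49101301 to 49101952, 22 bases away. Those on CFA11 from 25824901 to 25825254 and on CFA1 from 100023960 to 100024615 were 87 and 167 bases away. In each of these the recurrent site also held the nearest derived peak, so the regions lay beside a peak that every dog had. The farthest were on CFA6 from 73198792 to 73199126, at 11726558 bases, on CFA36 from 4484851 to 4485209, at 11419784 bases, and on CFA26 from 38637775 to 38638378, at 7335110 bases. *H3K27ac* was found at these 3 in 0, 1 and 6 dogs.

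Ancestral-only regions were spread over all 38 autosomes, with a mean density of 0.255 per Mb over the stretch that the lists cover. CFA9 had the largest number, 43, and the highest density, 0.704 per Mb. CFA32 had 2 regions and the lowest density, 0.0515 per Mb. By its share of all *E2F1* regions, CFA9 would have had 28.0, but other regions of 3 dogs were frequent there too, with 7.16% of them against 7.66% of the ancestral-only regions. CFA7 held 4.99% of the ancestral-only and 3.43% of the other regions of 3 dogs, CFA30 3.03% and 2.06%, and CFA20 3.92% and 5.76%.

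Over the 38 chromosomes, the density of ancestral-only regions went with that of *H3K27ac* peaks (Spearman's rho = 0.843) and of recurrent *E2F1* regions (Spearman's rho = 0.731). It also went with the density of derived-only regions (Spearman's rho = 0.632). Chromosomes share the same 12 libraries and differ in gene content and base composition, so these are descriptions. Whether the densities of other *E2F1* regions went with *H3K27ac* in the same way was not tested. The distal 5 Mb of the chromosomes held 63 of the ancestral-only regions, or 11.2%, against 11.1% of all *E2F1* regions, and the first 5 Mb held 55, or 9.8%, against 9.54%.

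**Figure D5:**
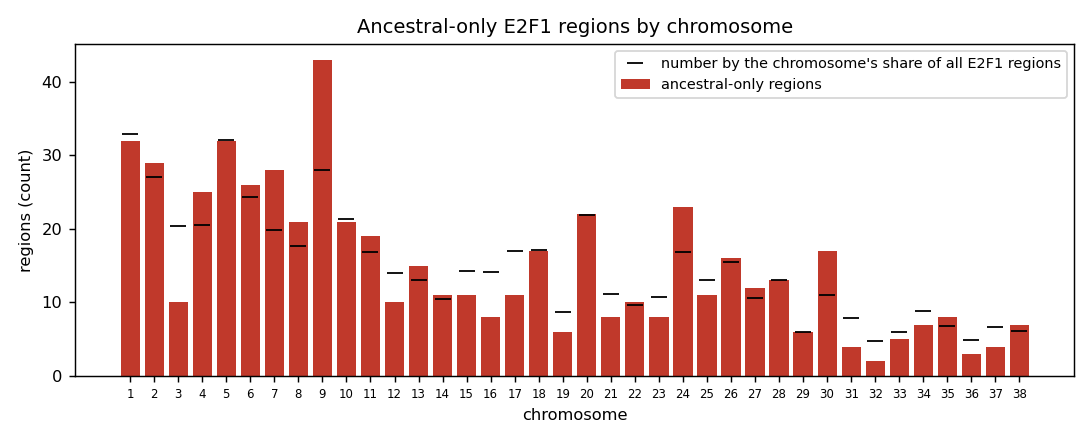
Red bars give the number of ancestral-only regions (y axis) on each autosome (x axis), and black dashes the number that the chromosome's share of all *E2F1* regions would give. CFA9 stands above its dash, with 43 against 28.0, and CFA3 below its own, with 10 against 20.4.

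The spacing of the regions was not compared with that of other sets, so it is a description. Neighbours on a chromosome were a median of 1.6 Mb apart, and 40 of 523 neighbouring pairs were within 100 kb. Within 10 kb there were 2 pairs. These were on CFA2, where regions from 78408161 to 78408808 and from 78415759 to 78416201 were 6950 bases apart, and regions from 81110560 to 81111670 and from 81120288 to 81121370 were 8617 bases apart. The third closest pair was on CFA6, where regions from 8545537 to 8545868 and from 8560639 to 8561458 were 14770 bases apart. The 1 Mb bin with most regions was on CFA1 from 106000001 to 107000000, with 5. The region with *H3K27ac* in the ancestral dogs alone was 1 of these 5, and 2 of the 5 were acetylated in all 6 dogs.

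On CFA6, which carries *GTF2I*, there were 26 ancestral-only regions, against 24.3 by the chromosome's share of all regions. The nearest to the TE was 0.754 Mb below it, from 4999113 to 5000007, with *E2F1* folds of 8.07, 3.99 and 5.32 in ancestral dogs 1 to 3. The next lay 1.3 Mb above the TE, from 7052539 to 7053347, with folds of 4.52, 4.3 and 5.15, and 1.78 Mb above it, from 7534699 to 7535518, with folds of 5.56, 4.91 and 6.45. All 3 carried *H3K27ac* in the 6 dogs, and no ancestral-only region was nearer to the TE than these. The paper, which compared normalized read counts, reports a stronger *E2F1* signal in the ancestral dogs within an intron of *GTF2I*. That place was not among the ancestral-only regions, which needed a peak in every ancestral dog and in no derived dog. Whether *E2F1* signal near the TE differed between the genotypes was not tested, since the lists hold no read counts.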

How the data were processed

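The authors trimmed reads (Trim Galore), mapped them with Bowtie on CanFam3.1, kept reads with several matches, dropped duplicates by unique molecular identifiers and ran MACS2 2.2.0 (version per the submitters' processing notes) on each dog, narrow for *E2F1* and broad for *H3K27ac*. The deposited lists give a score, a fold ratio over local background, and −log10 p and q, with no normalization between dogs. For *E2F1* the lowest deposited −log10 q was 1.3 (1.31 in derived dog 3), below the threshold of q = 0.0005 that the methods state, and all peaks were used. The score was not used. Fold and q were used only within a list. The lists hold no read counts, so depth and detection limits are unknown here. The paper reports more noise than is usual in its *E2F1* tracks and gives this as the reason for its strict threshold. It also cautions that some *E2F1* binding sites may be missed.

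Peaks on chromosomes 1 to 38 were joined where they overlapped or touched. *H3K27ac* was counted as present at an overlap of at least 1 bp. Coordinates are 1-based. Percentages were compared over dogs with exact permutation tests. Named regions are the 10 with the highest lowest percentile by q, the 3 widest, those with *H3K27ac* in 1 genotype, the 3 nearest the TE, the 3 nearest to and farthest from recurrent sites, and the 3 closest pairs. The weakest regions and the fullest 1 Mb bin were chosen after their values were seen. The members and lists were chosen with earlier results of these data known. Each dog is a separate animal. Genes, sequences and input libraries were not analysed here. Steps were tested on simulated data, with Python 3.11.15, numpy 2.4.6, pandas 2.3.3 and scipy 1.17.1.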

Additional observations from a re-analysis of the deposited data

How the results depend on the processing

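Of 99 alternative values for 6 results, 60 kept their direction and side of the threshold or stayed near the main value. Among these is the pairing by replicate number, which cannot change the difference. Also among them are genotype differences in *H3K27ac* presence of 0, which have no direction. They arose at an *E2F1* q below 1e-10 and with at least 50% of a region covered by *H3K27ac*. The genotype test cannot give a p below 0.1, so its side of the threshold was fixed. Unless a step below shows it, the cause of a change was not tested. The number of ancestral-only regions was 215 at a q below 0.0005, 26 at a q below 1e-10 and 224 with no derived peak within 1 kb, against 561. With each dog left out it ran from 705 to 4477. The q cuts dropped weaker peaks of all 6 dogs before joining, so the regions they gave need not be among the 561. Of the 561, 76 had all 3 peaks at a q below 0.0005.

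The genotype difference in *H3K27ac* presence changed sign with *H3K27ac* peaks of a q below 1e-05 (0.772 points) and ran from -1.98 to 1.66 with each dog left out. The difference between ancestral-only and other regions of 3 dogs was -4.5 points at an *E2F1* q below 1e-10, with 26 regions, and ran from -0.848 to 16.7 with each dog left out. The difference from derived-only regions ran from -4.23 to 44.6 with each dog left out. There, ancestral-only and derived-only regions needed peaks in different numbers of dogs. With 5 dogs the sign-flip test cannot give a p below 0.0625, so no such difference could pass.

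The percentage within 100 kb of a recurrent site was 14.9 at a q below 0.0005 and 0 at a q below 1e-10, where fewer regions are recurrent, 31.2 with no derived peak within 1 kb, 64.7 with sites of at least 5 dogs and 8.73 within 10 kb. With each dog left out it ran from 29.8 to 52.6. The mean of the median peak widths was 369 bp at a q below 0.0005 and 714 bp at a q below 1e-10, and ran from 271 to 360 bp with each dog left out. Requiring that the peaks of a region share a base, an alternative chosen after seeing the data, gave 386 regions and left the other 5 results on their side of the threshold or near their value.

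Dogs of the 2 genotypes with the same number are different animals. Any pairing of the dogs leaves the mean difference in *H3K27ac* presence at -0.535 points, so pairing by replicate number could change only the test (exact sign-flip permutation test, p = 1). The correlations of the deviations of dogs with the same number were 0.00569, -0.0673 and -0.0234. Since the lists hold no reads, depth limits every absence named here.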
